A study of Mus musculus with 6 samples.

Results

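The 39 genes described here are interferon-stimulated genes, chosen by mouse gene symbol from the deposited table of 27546 genes. The rule uses no measured value, but it was written with earlier results of these data known. All 39 were listed, and all 39 reached the mean FPKM of 0.5 that a gene needed to be tested. The test covered 14657 genes in all. They comprise 25 effectors of the type I response, 10 interferon gamma-inducible GTPases, and 4 interferon regulatory factors. The libraries came from distal colon of 3 Gm31629-/- mice and 3 WT littermates, 1 library per mouse. The labels give the strain as C57BL/6 and the methods give the background as C57BL/6J. Each of the 6 mice was 8 weeks old, drank 3% DSS (dextran sulfate sodium, which damages the lining of the colon) for 7 days, and was sacrificed on day 8. Both groups were thus under injury and no untreated mice were measured. According to the methods, the sequence of Gm31629 on chromosome 1 was the region targeted in the knockout. Gm31629 itself was not analysed here, so the genotype labels could not be checked against it. The methods also speak of pooled RNA, while the table holds a column per mouse. The columns were treated as separate mice, and p-values measure only the spread between these columns.

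Interferons are secreted proteins that warn neighboring cells of infection or damage. Type I and type III interferons act through receptor-bound kinases and a transcription factor complex that binds the interferon-stimulated response element in target promoters. Interferon gamma acts through its own receptor and the gamma-activated site. In the colon, epithelial cells, macrophages, and lymphocytes all respond, and the products range from inhibitors of viral RNA to GTPases that attack vacuoles holding microbes.

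FPKM is the number of fragments per kilobase of gene and per fixed number of mapped fragments, so levels can be compared between genes. Fragment totals recovered from the table were 18002800 to 18793200 per library, and the 39 genes had at least 30 fragments in every library. Genotypes were compared by limma on the log2(FPKM + 1) scale, and p-values were adjusted by Benjamini-Hochberg over the 14657 genes. A gene is said to have risen or fallen where its adjusted p was under 0.05. An exact permutation test of 1 gene with 3 mice a group has 0.10 as its smallest two-sided p. Transcripts of 4 Y-linked genes were listed above 0 only in Gm31629-/- mouse 1. Xist, which is transcribed from the inactive X chromosome of females, had 0.0061 FPKM in that mouse and 8.35 to 13.8 FPKM in the other 5. The methods name male mice. Only Gm31629-/- mouse 1 had the pattern of a male, and the other 5 libraries do not match the methods. These libraries thus do not match 1 sex, and mixed sexes and mislabelled libraries cannot be told apart. Counts are therefore also given without Gm31629-/- mouse 1, which differs from the other 5. In WT mouse 1 the interferon-stimulated genes stood apart from the other WT mice, and counts are likewise given without it. WT mouse 1 was thus picked by the values under test. It was the highest WT mouse for 38 of the 39 genes, so leaving it out had to raise their log2 fold changes.

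The promoters of a few members with binding sequences of the interferon response are shown. The 39 genes were chosen by symbol and not by these sequences. Of the 39 genes, 28 matched an entry in the RefSeq promoter table (GRCm38.p6), which was searched over the 250 bases before each start. The core of the interferon-stimulated response element, which is GAAA, a pair of any bases, and GAAA on either strand, stood in 15 of these 28 genes (53.6%), against 3.46% of all 27025 genes with an entry. The gamma-activated site, TTCNNNGAA, which reads the same on both strands, stood in 9 genes (32.1%), against 8.13% of all. Both stood in 6 genes, against 0.459% of all, and neither stood in 10 genes (35.7%), against 88.9% of all. All 7 GTPase genes with an entry held the response element core, as did 8 of 17 type I effectors and 0 of 4 regulatory factors. A match is only a description of the letters in this window. Below, capitals mark these motifs and all other bases are in lower case, 5′ to 3′ on the strand of the gene. Isg15 held 3 overlapping copies of the core, Oas1a held 2 overlapping copies and a gamma-activated site, Gbp5 held 1 core and 2 gamma-activated sites, Gbp2 held 1 core, and the first of the Irf8 starts had 2 gamma-activated sites.
Isg15 (chr4:156200819-156201068, minus strand): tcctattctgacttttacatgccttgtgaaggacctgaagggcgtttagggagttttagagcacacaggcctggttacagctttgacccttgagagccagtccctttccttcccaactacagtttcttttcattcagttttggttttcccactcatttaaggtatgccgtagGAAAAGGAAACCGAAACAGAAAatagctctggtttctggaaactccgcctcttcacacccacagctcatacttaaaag
Oas1a (chr5:120907526-120907775, minus strand): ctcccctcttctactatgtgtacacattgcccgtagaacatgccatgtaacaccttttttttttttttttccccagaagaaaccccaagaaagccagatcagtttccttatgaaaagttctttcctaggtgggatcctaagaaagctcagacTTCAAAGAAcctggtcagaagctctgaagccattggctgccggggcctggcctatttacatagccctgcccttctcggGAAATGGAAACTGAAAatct
Gbp5 (chr3:142496684-142496933, plus strand): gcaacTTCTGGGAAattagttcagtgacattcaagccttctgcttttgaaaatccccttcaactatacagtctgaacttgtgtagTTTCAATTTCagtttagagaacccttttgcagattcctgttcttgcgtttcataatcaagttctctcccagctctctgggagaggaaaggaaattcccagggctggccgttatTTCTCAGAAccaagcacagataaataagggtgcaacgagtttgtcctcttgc
Gbp2 (chr3:142620413-142620662, plus strand): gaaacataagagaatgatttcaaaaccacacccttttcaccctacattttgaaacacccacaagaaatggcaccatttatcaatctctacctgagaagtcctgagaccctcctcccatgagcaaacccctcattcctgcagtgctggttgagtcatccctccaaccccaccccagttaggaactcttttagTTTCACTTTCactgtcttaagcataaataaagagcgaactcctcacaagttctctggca
Irf8 (chr8:120736108-120736357, plus strand): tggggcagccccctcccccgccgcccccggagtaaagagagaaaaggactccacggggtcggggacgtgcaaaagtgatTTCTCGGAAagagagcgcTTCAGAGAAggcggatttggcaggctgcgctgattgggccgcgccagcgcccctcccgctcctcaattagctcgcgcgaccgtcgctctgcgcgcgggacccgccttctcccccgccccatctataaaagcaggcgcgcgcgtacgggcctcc

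To ask whether the loss of Gm31629 went with a different interferon response during DSS colitis, the 39 genes were compared between genotypes. In Gm31629-/- mice, 4 genes rose (Ifi27, Gbp5, Gbp4, and Samd9l) and 4 fell (Irf8, Oasl1, Oas1a, and Mx2). The other 31 genes did not pass the test. The 8 genes are 20.5% of the 39, whereas 43.5% of all tested genes passed, 28.9% as higher and 14.6% as lower. With a log2 fold change past 1 or −1 added, 3 genes were higher and 2 were lower, against 18.4% and 4.64% of all tested genes and 23.1% in either direction. Values of both groups were fully apart for 7 of the 39 genes, 2 with Gm31629-/- mice above and 5 with them below, against 57.8%, 36.3%, and 21.5% of all tested genes. The median log2 fold change of the 39 genes was −0.08, beside 0.15 for all tested genes. After each library was rescaled by its median ratio, these medians were −0.34 and −0.06, 2 members rose, and 6 fell. Of all tested genes that passed, 4238 of 6376 were higher, and 3527 of 7163 were higher after this scaling. The median size of the difference, regardless of sign, was 0.55 on the log2 scale for the 39 genes and 0.53 for all tested genes, whereas the median standard error was 0.44 against 0.20.

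The members that passed depended on which mice were included. Without WT mouse 1, the 7 that rose were Ifi27, Samd9l, Trim30a, Gbp3, Gbp4, Gbp5, and Gbp7, and 0 fell, although 4 were lower at an unadjusted p under 0.05 (limma). Without WT mouse 2, Ifi27 rose and Oas1a, Oas3, Oasl1, and Irf8 fell. Without WT mouse 3, Ifi27 alone passed, and 4 members were lower at an unadjusted p under 0.05. Without Gm31629-/- mouse 1, Ifi27 and Gbp5 rose and Irf8 fell. Without Gm31629-/- mouse 2, Ifi27 and Gbp5 rose and Mx2, Oas1a, Oas3, and Oasl1 fell. Without Gm31629-/- mouse 3, Ifi27, Samd9l, Gbp4, and Gbp5 rose and 0 fell, with 1 lower at an unadjusted p under 0.05. In these 6 fits 2.56% to 17.9% of the members passed, against 25.7% to 41.5% of all tested genes.

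**Figure D1:**
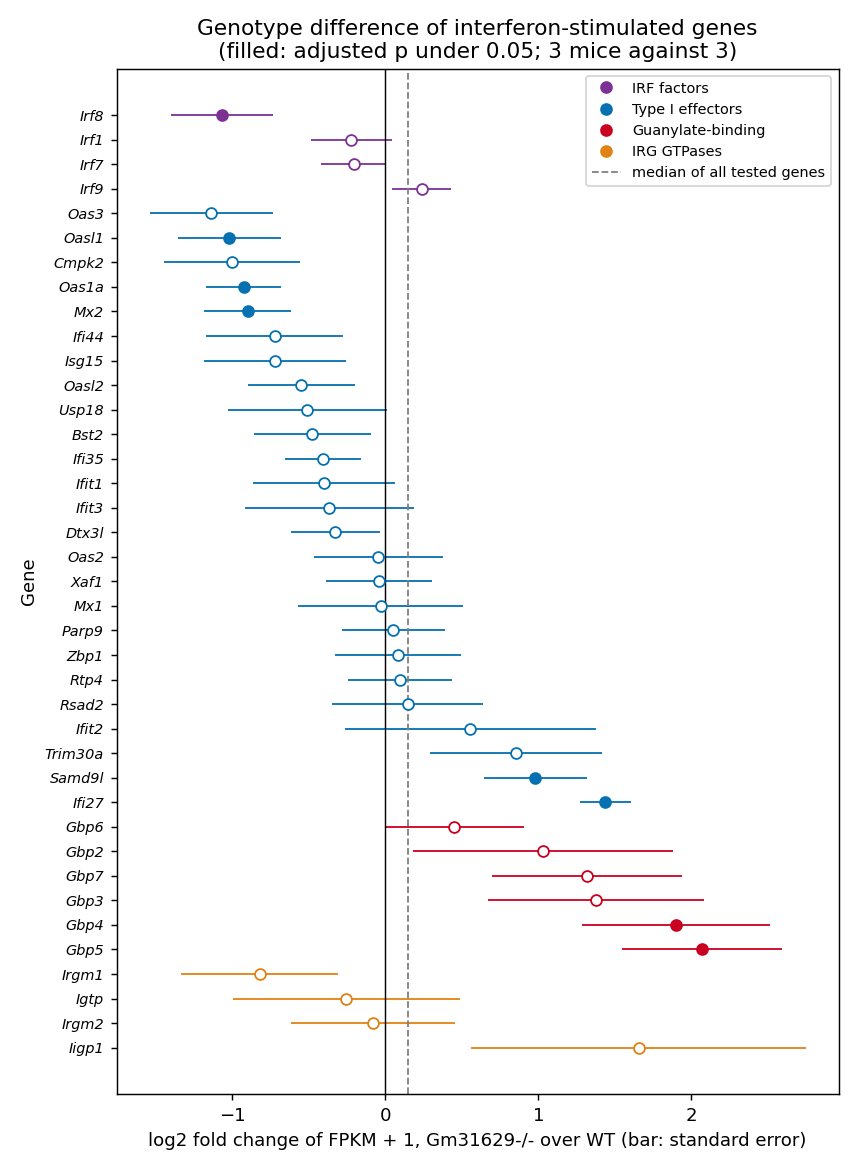
Log2 fold change of FPKM + 1 (horizontal axis, Gm31629-/- over WT, bars are standard errors) for each of the 39 genes (vertical axis), with filled points for an adjusted p under 0.05. The 6 guanylate-binding genes lie to the right of 0, the OAS genes lie to the left, and the dashed line is the median of all tested genes at 0.15.

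The regulatory factors control transcription of the other members. Irf8, a factor of the myeloid and B cell lineages (ENSMUSG00000041515, chromosome 8, 120736358 to 120756694), had 29.9, 21.7, and 17.9 FPKM in Gm31629-/- mice 1 to 3. In WT mice 1 to 3 it had 73.2, 30.2, and 51.6 FPKM. Each Gm31629-/- mouse was below each WT mouse, by a narrow margin between Gm31629-/- mouse 1 and WT mouse 2. The log2 fold change was −1.07 (standard error, SE, 0.33; limma adjusted p = 0.0369), and Irf8 kept an adjusted p under 0.05 in 2 of the 6 fits that each left out a mouse. Irf7, the main amplifier of type I interferon production, was the most abundant factor, with 158 ± 8.81 FPKM (SD, n = 3) in Gm31629-/- mice and 187 ± 47.5 FPKM (SD, n = 3) in WT mice. Its groups overlapped (log2 fold change −0.21, limma adjusted p = 0.461). Irf1, which is induced by interferon gamma and drives many GTPase genes, had 75.4 ± 7.79 and 92.1 ± 35.7 FPKM (SD, n = 3 each), and Irf9, a subunit of the complex that binds the response element, had 22.8 ± 3.66 and 19.3 ± 3.77 FPKM. Neither passed, with limma adjusted p of 0.518 and 0.350.

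Among the 25 effectors of the type I response, 2 rose, 3 fell, and 20 did not pass. The share that passed was 20%, beside 43.5% of all tested genes. The log2 fold change was negative for 17 of the 25 effectors, beside 6173 of all 14657 tested genes. The median of the effectors was −0.37. The median was 0.07 without WT mouse 1 and lay below 0 in the other 5 fits that left out a mouse.

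The OAS genes encode oligoadenylate synthetases, which sense double-stranded RNA and activate the RNA-cleaving enzyme RNase L, and OAS-like relatives. The log2 fold changes of all 5 lay below 0, between −1.14 and −0.05, also after median ratio scaling, and 2 of them fell. These 2 are 40% of the 5 genes, beside 14.6% of all tested genes that fell. Of all 14657 tested genes, 6173 had a negative log2 fold change. Oas2 turned positive in fits without Gm31629-/- mouse 1 or 3 or WT mouse 1, reaching 0.28. Oas1a (ENSMUSG00000052776, chromosome 5, 120896256 to 120907521) had 57.8, 82.5, and 73.6 FPKM in Gm31629-/- mice 1 to 3. The WT mice had 181, 99.8, and 135 FPKM. The groups did not overlap (log2 fold change −0.92, SE 0.25, limma adjusted p = 0.0210). Oasl1, an OAS-like protein, had 49.3, 65.8, and 36.7 FPKM in Gm31629-/- mice and 161, 70.7, and 90.03 FPKM in WT mice. Its groups did not overlap either (log2 fold change −1.02, SE 0.34, limma adjusted p = 0.0438). Oas3 had the most negative log2 fold change of the 39 genes and did not pass (log2 fold change −1.14, SE 0.40, limma adjusted p = 0.0561). WT mouse 2, with 23.4 FPKM, lay below Gm31629-/- mouse 2, with 27.1 FPKM. For Oasl2 and Oas2 the log2 fold changes were −0.55 and −0.05, with limma adjusted p of 0.235 and 0.939. Without WT mouse 1, Oas1a and Oasl1 no longer passed, at log2 fold changes of −0.71 and −0.69 (limma adjusted p = 0.0636 and 0.108).

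The MX proteins are dynamin-like GTPases that block virus replication. Mx2 had 1.55, 2.34, and 1.20 FPKM in Gm31629-/- mice and 6.30, 3.18, and 2.99 FPKM in WT mice. It was among the least abundant members, and its groups did not overlap (log2 fold change −0.90, SE 0.28, limma adjusted p = 0.0378). Mx1, its neighbor on chromosome 16, had 12.6, 17.1, and 6.45 FPKM in Gm31629-/- mice and 27.1, 6.43, and 8.35 FPKM in WT mice. WT mouse 1 was above the other 5 mice, which overlapped (log2 fold change −0.03, limma adjusted p = 0.969). Cmpk2, a mitochondrial nucleotide kinase, had 13.4, 11.7, and 5.81 FPKM in Gm31629-/- mice and 40.1, 14.2, and 15.1 FPKM in WT mice. The groups did not overlap, yet Cmpk2 did not pass (log2 fold change −1.003, SE 0.44, limma adjusted p = 0.106).

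Ifi27, which encodes a small hydrophobic membrane protein, gave the clearest difference of the 39 genes. Ifi27 (ENSMUSG00000064215, chromosome 12, 103434211 to 103440239) had 42.9, 56.6, and 49.02 FPKM in Gm31629-/- mice and 17.0, 20.5, and 15.4 FPKM in WT mice. The lowest Gm31629-/- mouse was above the highest WT mouse, and the ratio of the group means was 2.81. The log2 fold change was 1.44 (SE 0.17, limma adjusted p = 0.00102), and Ifi27 passed in 6 of 6 fits that left out a mouse and in 8 of 8 other settings. It was also the only member for which WT mouse 1 was not the highest WT mouse. Samd9l, an antiviral protein, had 31.4, 20.3, and 14.7 FPKM in Gm31629-/- mice and 15.7, 8.73, and 7.70 FPKM in WT mice. Gm31629-/- mouse 3 was below WT mouse 1, so the groups overlapped (log2 fold change 0.98, SE 0.34, limma adjusted p = 0.0495), and Samd9l passed in 2 of 6 fits that left out a mouse.

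The ubiquitin-like modifier ISG15 and its protease USP18 did not pass. Isg15 (ENSMUSG00000035692, chromosome 4, 156199424 to 156200818) had 124, 205, and 115 FPKM in Gm31629-/- mice 1 to 3. The WT mice had 458, 125, and 232 FPKM. WT mouse 2 lay within the range of the Gm31629-/- mice (log2 fold change −0.72, SE 0.46, limma adjusted p = 0.240). Usp18 had the same order of mice within WT, with 49.4, 13.6, and 19.0 FPKM, and 20.1, 23.7, and 8.82 FPKM in Gm31629-/- mice (log2 fold change −0.51, limma adjusted p = 0.453). Parp9 and Dtx3l, which form an ADP-ribosylating ubiquitin ligase and whose annotated genes overlap on chromosome 16, had log2 fold changes of 0.05 and −0.33 (limma adjusted p = 0.913 and 0.389).

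The IFIT proteins bind foreign RNA and block its translation, and their genes lie together on chromosome 19. Of the 3 genes, 0 passed in limma, 0 had an unadjusted p under 0.05, and 0 passed in voom on recovered fragments. Of all tested genes, 43.5% passed in limma, 7731 of 14657 had an unadjusted p under 0.05, and 43.4% passed in voom. Ifit2 ranged most, with 137, 72.8, and 20.7 FPKM in Gm31629-/- mice and 116, 21.6, and 25.3 FPKM in WT mice. Gm31629-/- mouse 1 and WT mouse 1 were high, and Gm31629-/- mouse 3 and WT mouse 2 were low (log2 fold change 0.56, SE 0.82, limma adjusted p = 0.608). Ifit1 and Ifit3 had log2 fold changes of −0.40 and −0.37 (limma adjusted p = 0.507 and 0.618). The remaining effectors (Rsad2, Bst2, Zbp1, Ifi35, Ifi44, Xaf1, Rtp4, and Trim30a) overlapped between groups, whereas 57.8% of all tested genes did not. Log2 fold changes of these effectors ran from −0.72 for Ifi44 to 0.86 for Trim30a. They include viperin (Rsad2), tetherin (Bst2), which holds budding virus at the cell surface, and Zbp1, a sensor of Z-form nucleic acid.

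Guanylate-binding proteins coat and rupture microbial vacuoles and feed the inflammasome. All 6 members had a positive log2 fold change, with a median of 1.34, and 2 of the 6 rose (33.3%). Of all 14657 tested genes, 8484 had a positive log2 fold change and 28.9% rose. The sign of each of the 6 members was the same in each other fit that included the gene. Gbp6 was too low to enter the fit of genes with a mean of 5 FPKM or more. Gbp5 (ENSMUSG00000105504, chromosome 3, 142493978 to 142522344) had 6.56, 17.1, and 4.04 FPKM in Gm31629-/- mice 1 to 3. The WT mice had 2.67, 0.510, and 0.681 FPKM. The groups did not overlap, and the log2 fold change of 2.07 was the largest of the 39 genes (SE 0.52, limma adjusted p = 0.0177). Gbp4, in a separate cluster on chromosome 5, had 13.2, 13.8, and 3.33 FPKM in Gm31629-/- mice and 4.43, 0.497, and 1.15 FPKM in WT mice. Gm31629-/- mouse 3 was below WT mouse 1 (log2 fold change 1.90, SE 0.61, limma adjusted p = 0.0409), and Gbp4 missed the threshold after median ratio scaling (adjusted p = 0.0519). Gbp3, Gbp7, Gbp2, and Gbp6 did not pass, with log2 fold changes of 1.37, 1.32, 1.03, and 0.45. The most abundant of them, Gbp2, had 135, 183, and 58.6 FPKM in Gm31629-/- mice and 198, 16.3, and 49.9 FPKM in WT mice. Its highest and its lowest value were thus both in WT mice (SE 0.85, limma adjusted p = 0.355). Without WT mouse 1, Gbp3 and Gbp7 passed as well as Gbp4 and Gbp5 (limma adjusted p of 0.0201 to 0.0338 over the 4). WT mouse 1 was the highest WT mouse for all 4, so leaving it out had to raise their log2 fold changes. Guanylate-binding genes resemble each other in sequence, so reads could be split between them.

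The immunity-related GTPases also take part in defense against vacuolar microbes. Of the 4 genes, 0 passed in limma, 0 had an unadjusted p under 0.05, and 0 passed in voom on recovered fragments. Of all tested genes, 43.5% passed in limma, 7731 of 14657 had an unadjusted p under 0.05, and 43.4% passed in voom. Iigp1 had 60.9, 57.8, and 10.4 FPKM in Gm31629-/- mice and 51.04, 1.87, and 7.91 FPKM in WT mice. Its highest WT value was 27.3 times its lowest, the widest ratio within a group among the 39 genes (log2 fold change 1.65, SE 1.09, limma adjusted p = 0.252). Igtp had 74.2, 97.0, and 35.2 FPKM in Gm31629-/- mice and 226, 26.1, and 72.8 FPKM in WT mice. WT mouse 1 was the highest and WT mouse 2 the lowest of the 6 (log2 fold change −0.26, limma adjusted p = 0.801). Irgm1 and Irgm2 had log2 fold changes of −0.82 and −0.08 (limma adjusted p = 0.227 and 0.915). The annotated span of Irgm2 overlaps that of Igtp on the same strand, so fragments there may not be assigned cleanly.

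**Figure D2:**
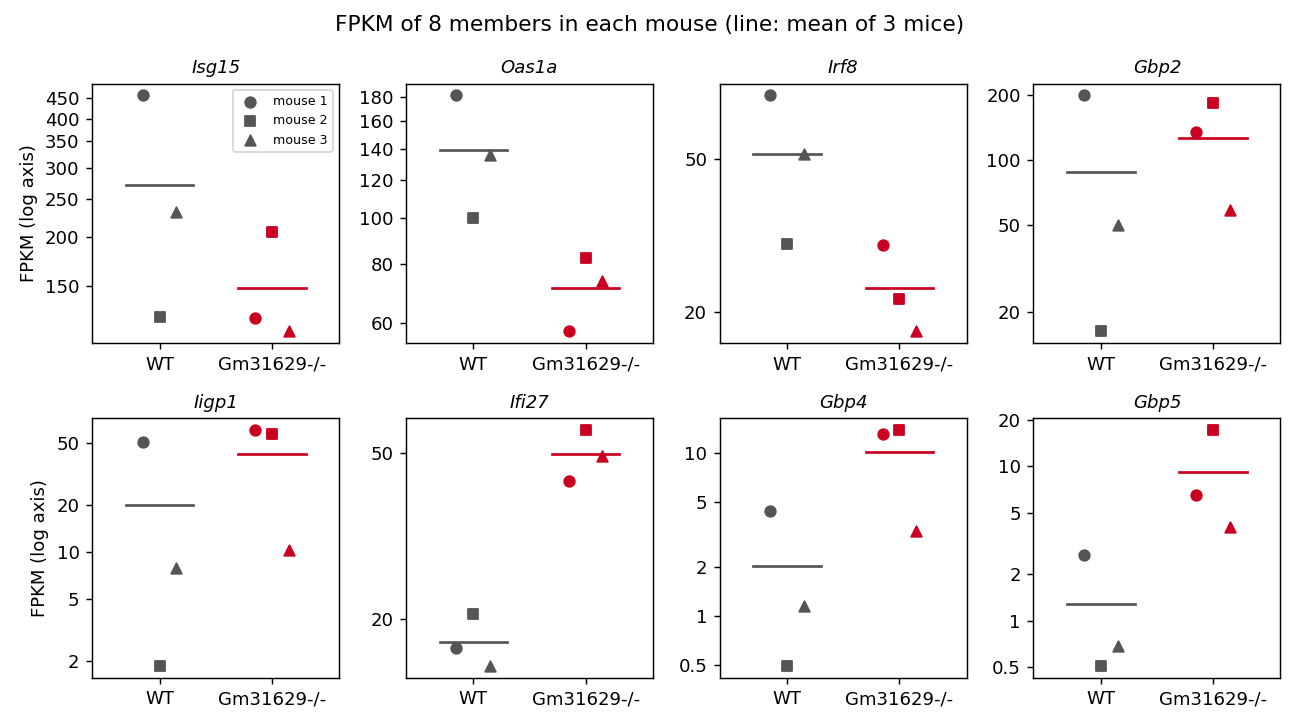
FPKM on log axes of 8 members in each WT (grey) and Gm31629-/- (red) mouse, with a marker shape for mice 1 to 3 and a line at the mean of each group. Ifi27 and Gbp5 do not overlap between groups, whereas Gbp2 and Iigp1 have WT mouse 1 beside the Gm31629-/- mice and WT mouse 2 as the lowest.

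Most of the 39 genes varied more among mice of a group than between the groups. The range over the WT mice exceeded the difference between the groups for 33 of the 39, against 34.4% of all tested genes. WT mouse 1 was the highest WT mouse for 38 of the 39 genes, against 28.0% of all tested genes. It was the highest of all 6 mice for 27, against 8.83% of all tested genes. WT mouse 2 was the lowest WT mouse for 32 of the 39, against 32.6% of all tested genes. Within Gm31629-/- mice, mouse 3 was the lowest for 34 of the 39, against 44.05% of all tested genes. Mouse 2 was the highest Gm31629-/- mouse for 30, against 44.03% of all tested genes. On average over the 39 genes, log2(FPKM + 1) relative to the mean of the 6 mice was 0.83, −0.68, and −0.23 in WT mice 1 to 3 and 0.22, 0.43, and −0.57 in Gm31629-/- mice 1 to 3. The mean over the 3 Gm31629-/- mice exceeded that over the 3 WT mice by 0.05, whereas the WT mice spanned 1.51 and the Gm31629-/- mice 1.00. By family, the average difference between Gm31629-/- and WT mice was 1.36 for the guanylate-binding genes, 0.12 for the immunity-related GTPases, −0.21 for the type I effectors, and −0.32 for the regulatory factors. The WT mice of these families spanned 2.16, 2.84, 1.24, and 0.88.

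**Figure D3:**
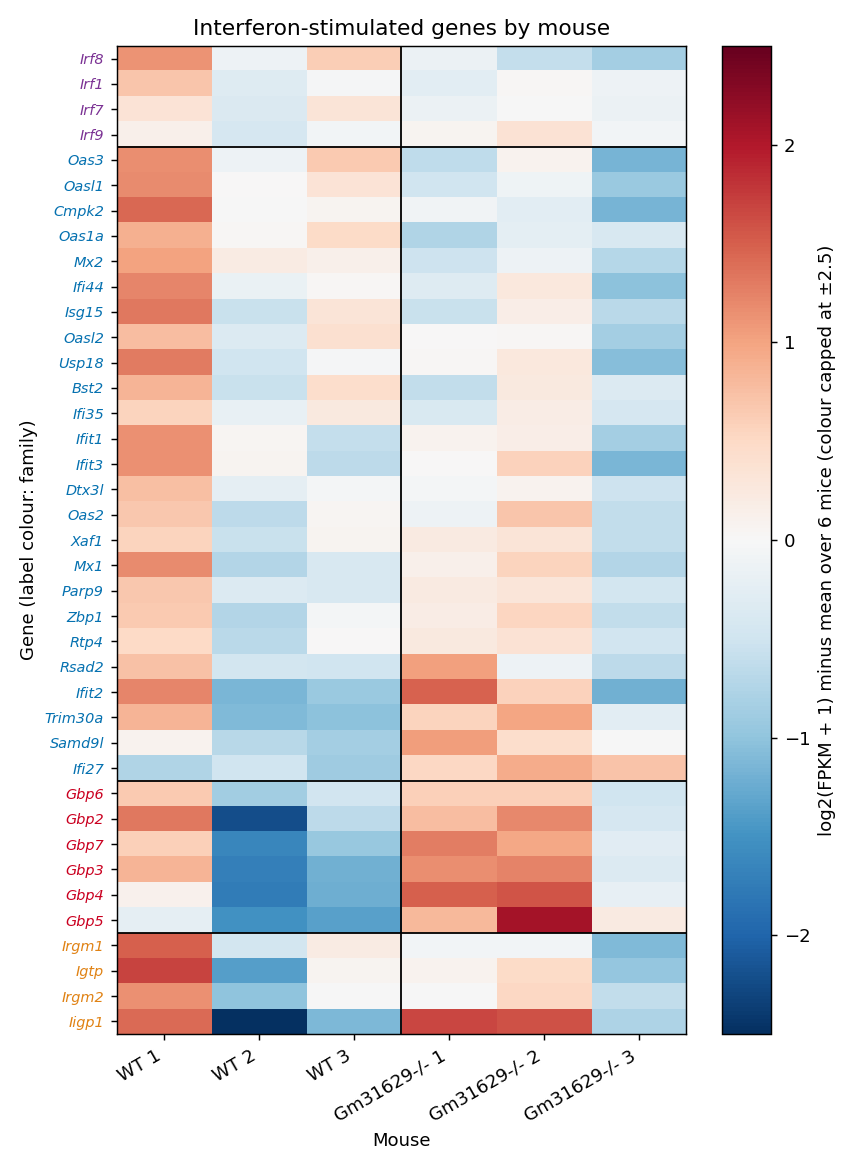
Log2(FPKM + 1) of the 39 genes (rows, label color by family) in each mouse (columns, WT left of the line), minus the mean over the 6 mice of each gene. WT mouse 1 is above the mean for 37 of 39 genes, WT mouse 2 for 5, and Gm31629-/- mouse 3 for 2.

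This spread was set beside that of all genes above a floor on abundance, with no matching of levels. Among the 7242 tested genes whose mean reached 5 FPKM, which include 37 of the 39 members, the range from the lowest to the highest WT mouse had a median of 0.33 on the log2(FPKM + 1) scale. The median for the 37 members was 1.38, and 34 of them lay above the 90th percentile of all these genes (0.74). Iigp1 had the widest WT range of the 7242 genes (4.18), Gbp2 ranked 4, and Igtp ranked 11. Of the 100 genes with the widest WT range, 15 were among the 37 members and a further 14 were among the 44 other interferon-inducible genes at this abundance. In Gm31629-/- mice the medians were 1.08 for the members and 0.49 for all these genes, and 0 of the 100 widest ranges belonged to a member. The WT range exceeded the Gm31629-/- range for 34 of the 39 members, against 29.0% of all tested genes. The 15 members with the response element core in the promoter had a median WT range of 1.86, and the 13 with an entry but no core had 1.10. All 7 GTPase genes with an entry were among the 15 and all 4 regulatory factors among the 13. Motif and family therefore cannot be told apart here. The medians are a description over genes that share the same 3 mice.

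**Figure D4:**
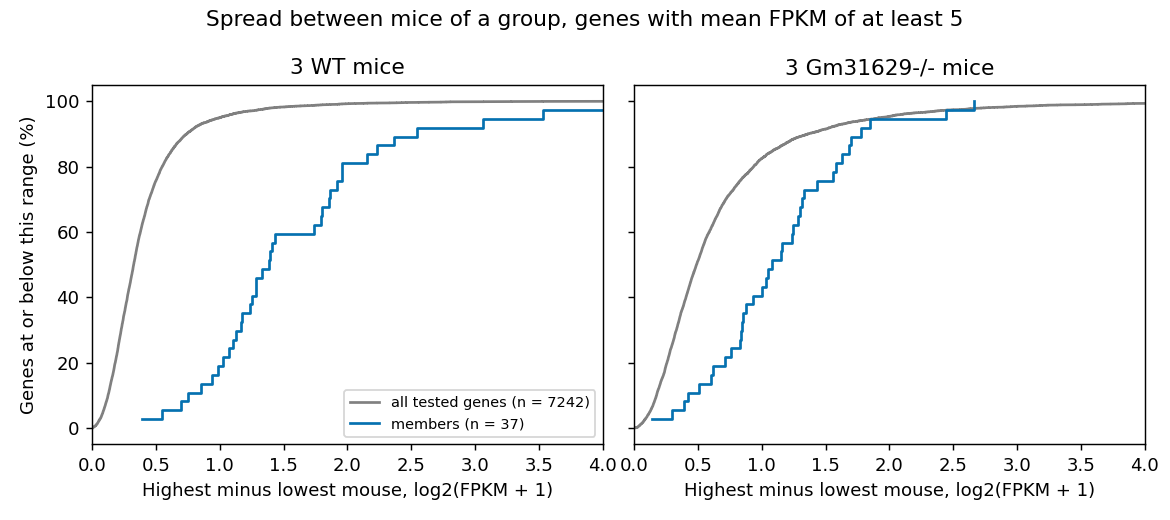
Cumulative share of genes (vertical axis, percent) by the range between the lowest and the highest mouse on the log2(FPKM + 1) scale (horizontal axis), for the 3 WT mice (left) and the 3 Gm31629-/- mice (right). The 37 members (blue) have a median range of 1.38 in WT and 1.08 in Gm31629-/- mice, beside 0.33 and 0.49 for the 7242 genes (grey).

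Interferon transcripts themselves were near the limit of detection. Of 21 interferon genes looked for, 5 were listed in the table and none reached the threshold for testing. Ifng, the gene of interferon gamma, had 12, 5, and 2 fragments in Gm31629-/- mice 1 to 3 and 10, 0, and 0 fragments in WT mice 1 to 3. WT mouse 1 was thus the only WT mouse with an Ifng fragment, where a count of 0 allows up to 3 fragments. Ifnl2 had 0, 3, and 0 fragments in Gm31629-/- mice and 8, 1, and 0 in WT mice. Ifnl3, a near-identical copy of this type III gene, had 0, 0, and 0 fragments in Gm31629-/- mice and 6, 2, and 0 in WT mice. Ifnb1 had 1 fragment, in WT mouse 1. Counts this low did not allow the genotypes to be compared.

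Of 12 receptor, kinase, STAT, and feedback genes, 4 rose, 1 fell, and 7 did not pass. The share that passed was 41.7%, near the 43.5% of all tested genes. Ifnar2, a chain of the type I receptor, had 4.85, 12.7, and 7.51 FPKM in Gm31629-/- mice and 2.47, 1.48, and 2.03 FPKM in WT mice (log2 fold change 1.57, limma adjusted p = 0.00754). Its partner Ifnar1 did not pass (log2 fold change 0.28, limma adjusted p = 0.264). The kinase genes Jak2 and Jak1 rose by 1.06 and 0.56 on the log2 scale, and the ligand-binding interferon gamma receptor chain Ifngr1 by 0.49 (limma adjusted p = 0.00854, 0.0245, and 0.0405). Tyk2, the kinase of the type I receptor, fell, with 10.1 to 12.7 FPKM in WT mice and 5.21 to 8.35 FPKM in Gm31629-/- mice (log2 fold change −0.73, limma adjusted p = 0.0205). The groups did not overlap for these 5 genes, which are 41.7% of the 12, against 57.8% of all tested genes. Stat2, a transcription factor of the type I response, did not pass (log2 fold change −0.53, limma adjusted p = 0.190). Socs1, an interferon-induced inhibitor of these kinases, had 54.7, 7.24, and 18.1 FPKM in WT mice 1 to 3, the same order as most members (log2 fold change −0.06, limma adjusted p = 0.948).

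Of 14 genes for nucleic acid sensors and the steps up to interferon, 4 rose, 1 fell, and 9 did not pass. Here 35.7% passed, beside 43.5% of all tested genes. Irf5, a factor of macrophages and B cells, had the largest rise, from 1.38 ± 0.320 FPKM in WT to 10.9 ± 5.23 FPKM in Gm31629-/- mice (SD, n = 3 each), at a log2 fold change of 2.23 (limma adjusted p = 0.00190). The gene of STING (Tmem173), the endosomal receptor genes Tlr7 and Tlr9, and the adaptor gene Ticam1 also passed, with log2 fold changes of 1.89, 1.06, 0.92, and −0.53 (limma adjusted p = 0.0209, 0.00464, 0.0205, and 0.0310). Tlr7 was near the floor in WT mice 1 to 3, with 6, 1, and 3 fragments, and had 85, 130, and 59 in Gm31629-/- mice. Its ratio of group means was 27.6, beside 7.87 for Irf5 and 7.67 for Tlr9. Adding 1 to the FPKM shrinks changes of such low genes. The interferon-inducible RNA sensors Ddx58, Dhx58, and Ifih1 did not pass, with log2 fold changes of −0.79, −0.56, and 0.50 (limma adjusted p = 0.0594, 0.230, and 0.254).

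A list of 56 other interferon-inducible genes was read in the same way. Of the 54 tested, 9 rose, 3 fell, and 42 did not pass, so that 22.2% passed beside 43.5% of all tested genes. Ifitm1, Ifitm2, and Ifitm3, whose proteins block virus entry and are also made constitutively by many cells, rose by 4.23, 2.06, and 1.94 on the log2 scale (limma adjusted p = 0.000393, 0.00211, and 0.0201). Ifitm1 went from 6.62 ± 0.760 FPKM in WT mice to 156 ± 81.6 FPKM in Gm31629-/- mice (SD, n = 3 each). Gbp8, whose annotated span on chromosome 5 overlaps that of Gbp4, rose by 2.099 (limma adjusted p = 0.0278). Those that fell were Pml, the organizer of nuclear bodies (log2 fold change −1.22, limma adjusted p = 0.00484), the coactivator gene Helz2 (−0.94, 0.00994), and Lgals3bp (−0.66, 0.0469). The interferon gamma-induced genes Cxcl9 and Ido1 had 18.7, 1.82, and 6.12 FPKM and 282, 18.0, and 63.8 FPKM in WT mice 1 to 3, and neither passed (log2 fold changes 0.69 and 0.62, limma adjusted p = 0.516 and 0.653).

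Markers of the cell types that the tissue can hold differed in level between the groups. Of 12 macrophage and monocyte markers, 11 rose, and their summed level was 634 to 1454 FPKM in Gm31629-/- mice and 101 to 111 FPKM in WT mice. Of 15 epithelial markers, 8 fell, with sums of 8236 to 9757 against 13270 to 14498 FPKM. Log2 fold changes were negative for 13 of the 15, but Epcam and Cdh1 were near level (0.005 and −0.04, limma adjusted p = 0.982 and 0.844). Tspan8 was higher in each Gm31629-/- mouse than in each WT mouse (0.51, limma adjusted p = 0.0514). Krt8 and Krt19 held much of the fall in the sums. Their means were 2042 and 1042 FPKM in Gm31629-/- mice and 4198 and 2068 FPKM in WT mice. All 12 smooth muscle markers rose (1604 to 2618 against 28.3 to 54.3 FPKM), as did all 8 endothelial (47.9 to 102 against 2.66 to 6.96 FPKM), all 8 fibroblast (210 to 613 against 19.5 to 40.9 FPKM), and all 6 neutrophil markers (507 to 1029 against 70.4 to 128 FPKM). Ly6g made up most of the neutrophil sums, with 288, 596, and 965 FPKM in Gm31629-/- mice 1 to 3. In WT mice 1 to 3 Ly6g had 66.7, 121, and 80.8 FPKM. S100a8, S100a9, and Retnlg ran the other way in Gm31629-/- mice, highest in mouse 1 and lowest in mouse 3. Cxcr2 and Csf3r were highest in Gm31629-/- mouse 2. Each of the 6 markers was higher in each Gm31629-/- mouse than in each WT mouse. Ly6g was singled out after its values were seen. Of 8 B and plasma cell markers, the 7 tested rose (233 to 422 against 14.8 to 21.6 FPKM), and of 7 dendritic cell markers 1 was tested and rose (4.70 to 7.46 against 1.07 to 1.51 FPKM). The dendritic marker tested was Pacsin1, with 2.78, 2.35, and 1.31 FPKM in Gm31629-/- mice and 0.675, 1.06, and 1.11 FPKM in WT mice, a large part of the sums. Flt3, Zbtb46, Xcr1, Clec9a, and Cd209a were too low to test, with each Gm31629-/- mouse above each WT mouse. Siglech had at most 6 fragments in a library, and its groups overlapped. Of 13 T and NK cell markers, 11 were tested and 6 rose. Their sum was 48.4, 50.4, and 24.1 FPKM in Gm31629-/- mice 1 to 3 and 28.4, 11.7, and 20.9 FPKM in WT mice 1 to 3. Gm31629-/- mouse 3 and WT mouse 2 were the lowest of their groups. Of these sums, Gzmb, the gene of the cytotoxic granule protease granzyme B, made up 14.6, 3.13, and 6.63 FPKM in WT mice 1 to 3. Without Gzmb the sums were 42.6, 36.4, and 20.6 FPKM in Gm31629-/- mice 1 to 3 and 13.8, 8.57, and 14.3 FPKM in WT mice 1 to 3. WT mouse 3 and not WT mouse 1 was then the highest WT mouse. Gm31629-/- mouse 3 and WT mouse 2 were still the lowest of their groups. Gzmb was set apart after its values were seen. No marker of these lists was at 0 in all 6 libraries, and the zeros were in Ncr1, Tnfrsf17, Xcr1, and Siglech in WT mice. Different numbers of cells of a type, different RNA per cell, and different parts of the colon wall in the samples cannot be told apart in bulk tissue. The part of these cell types in the values above, those of the pathway and other interferon-inducible genes included, was not tested.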

How the data were processed

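RNA was measured in distal colon of 3 Gm31629-/- and 3 WT mice. The authors deposited FPKM values, and the submitters' processing notes name HISAT2 2.1.0, HTSeq 0.6.0, and GRCm38. Whether counting used strand is not given in the sources used here. Symbols from GENCODE M21 matched 27488 of 27546 gene identifiers. Gene coordinates are from GENCODE M21 (GRCm38). Whole fragments were recovered from the FPKM steps, with 96.3% to 97.2% of values up to 20 fragments within 0.1 of a whole number.

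Only genes whose mean reached 0.5 FPKM entered the test, on log2(FPKM + 1) with limma 3.58.1 in R 4.3.3 (mean-variance trend, two-sided, Benjamini-Hochberg adjustment). The pseudocount understates changes of low genes. The script was tested on simulated data. Alternatives were another pseudocount, other filters, 2 scalings, no trend, a replicate block, voom on recovered fragments, and leaving out each mouse. The members, lists, and tests were chosen with earlier results of these data known. All members were accounted for, with full values for those of each family with the largest changes and the most abundant. Of the pathway genes, those that passed were named, and Ifng and Ifnb1 regardless. Of the other interferon-inducible genes, up to 4 with the highest and 4 with the lowest log2 fold change among those that passed without overlap were named. Genes named outside these rules, such as Socs1, Stat2, Cxcl9, and Ido1, were chosen after their values were seen.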

Additional observations from a re-analysis of the deposited data

How the results depend on the processing

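Of 310 comparisons of a member with its reported value under the 8 settings that kept all mice, 288 kept their direction and their side of the threshold. With no filter on low values, 2 members rose and 1 fell, and with a mean FPKM of at least 5, 2 rose, 2 fell, and 6 other interferon-inducible genes passed. The shares of members that passed were 7.69% and 10.8%, against 25.0% and 40.5% of all tested genes. Median ratio scaling left 2 members that rose, and with the replicate block 2 fell (Cmpk2 and Irf8). In these fits 20.5% and 15.4% of the members passed, against 49.3% and 36.8% of all tested genes. Replicate numbers did not pair the mice (correlations of deviations 0.036, −0.11, and 0.014), and the block left the count of members that rose at 4. Median ratio scaling reversed Rsad2 (−0.098), Zbp1 (−0.17), Parp9 (−0.20), Rtp4 (−0.16), and Irf9 (−0.013), none of which passed. Leaving out a mouse gave 1 to 7 members that rose and 0 to 4 that fell. Of the other lists, 4 to 10 pathway genes and 8 to 14 other interferon-inducible genes passed. Of all tested genes, 25.75% to 41.5% passed with a mouse left out. The medians were −0.42 to 0.28 for all members, −0.58 to 0.07 for type I effectors, and 0.43 to 1.95 for GTPases. The log2 fold changes that turned sign in these fits ranged from −0.80 to 0.067 for Ifit1, from −0.039 to 1.31 for Ifit2, from −0.79 to 0.11 for Ifit3, from −0.41 to 0.55 for Mx1, from −0.40 to 0.28 for Oas2, from −0.32 to 0.56 for Rsad2, from −0.88 to 0.013 for Usp18, from −0.33 to 0.26 for Xaf1, from −0.26 to 0.44 for Zbp1, from −0.14 to 0.40 for Parp9, from −0.21 to 0.37 for Rtp4, from −1.01 to 0.53 for Igtp, from −0.61 to 0.47 for Irgm2, and from −0.44 to 0.070 for Irf1. The cause was not tested. Each member had at least 30 fragments in every library, and 3 mice a group limit the precision.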
